A study of Oryctolagus cuniculus with 4 samples.

Results

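The FGF, IGF, EGF, VEGF and HGF families are secreted growth factors, their receptors and the proteins that carry or restrain them. They were taken from the gene table of a rabbit ear hypertrophic scar (HS) study by their gene symbols alone, and 43 of 13913 genes matched. Single-cell RNA sequencing libraries (10x Genomics) had been made from the ventral epidermis and dermis of scars raised by wounding the ventral ear of female rabbits, which were 10 to 12 weeks old and are labelled WT. The HS group (2 libraries) got no treatment, and the other group, called drug-loaded MNs (2 libraries), received a patch of microneedles, whose tips are left in the tissue with a prodrug of 5-fluorouracil acetic acid, once a week for 3 weeks. Both groups carried scars of the same model and were harvested on day 43, so neither held normal skin, and a drug-free patch is not among these libraries. Each library came from a separate tissue. The study assigned different rabbits to each group and calls the samples biologically independent, without saying outright that tissues of one group came from different rabbits, and each ear carried several scars. The p-values below measure the spread between these libraries.

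Growth factors of these families act mostly between neighbouring cells. In skin, fibroblasts are known to release FGF7, FGF10 and HGF, which bind FGFR2 and MET on keratinocytes, while keratinocytes release EGF family ligands such as HBEGF and AREG that act on EGFR in the epidermis itself. IGF1 comes from fibroblasts and macrophages, and IGF binding proteins hold it outside the cell. Most receptors of these families are tyrosine kinases that signal through the RAS-ERK and PI3K-AKT relays.

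The table held 1 value per gene and library, with all cells of a library combined. A lower number of cells of a type and less RNA per cell therefore cannot be told apart. Values are given in units, where 1 unit is 1 part in 1000000 of all expression in that library. They had no known depth, and the smallest two-sided p of an exact permutation test of 2 against 2 is 0.333, so tests came from a limma fit over all genes. Markers of dermis and epidermis were present in every library. Summed over the 5 fibroblast markers of the table (COL1A1, COL1A2, COL3A1, DCN and LUM) the level was 22929 and 22452 units in HS and 44488 and 48451 units in drug-loaded MNs. The 3 suprabasal keratinocyte markers (KRT1, KRT10 and DSG1) summed to 35935 and 50732 units in HS and 30455 and 39833 units in drug-loaded MNs. The 2 HS libraries lay further apart (median absolute log2 difference over all tested genes 0.33) than the 2 drug-loaded MNs libraries (0.23), and HS replicate 2 was about as near to drug-loaded MNs replicate 2 (0.22).

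Of the 43 genes, 32 had a mean of at least 1 unit and entered the test. All 32 reached that mean in each group taken alone. None of the 32 passed an adjusted p of 0.05 in limma, where 0.0428% of all 9348 tested genes did (4 genes). At an unadjusted p under 0.05, 6 were higher in drug-loaded MNs and 1 was lower. Across all tested genes the shares were 7.26% higher and 1.39% lower. The 6 were IGF1, HGF, FGF10, FGF7, IGFBP6 and IGFBP5, and the 1 was HBEGF. In 12 of the 32 every drug-loaded MNs library lay above every HS library, and in 5 every one lay below (26.6% and 11.2% of all tested genes). The log2 fold change was above 0 in 25 of the 32, and in 64.6% of all tested genes. The median log2 fold change of the 32 was 0.18, against 0.12 for all tested genes. Under median ratio scaling it was 0.065 for the 32 and -0.01 for all tested genes. There, 7 of the 32 were above and 7 below without overlap, near the shares of all tested genes (18.4% and 20.6%). The log2 fold changes of HGF, IGF1, FGF10 and FGF7 in that scaling were 1.56, 1.26, 1.18 and 1.08.

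**Figure D1:**
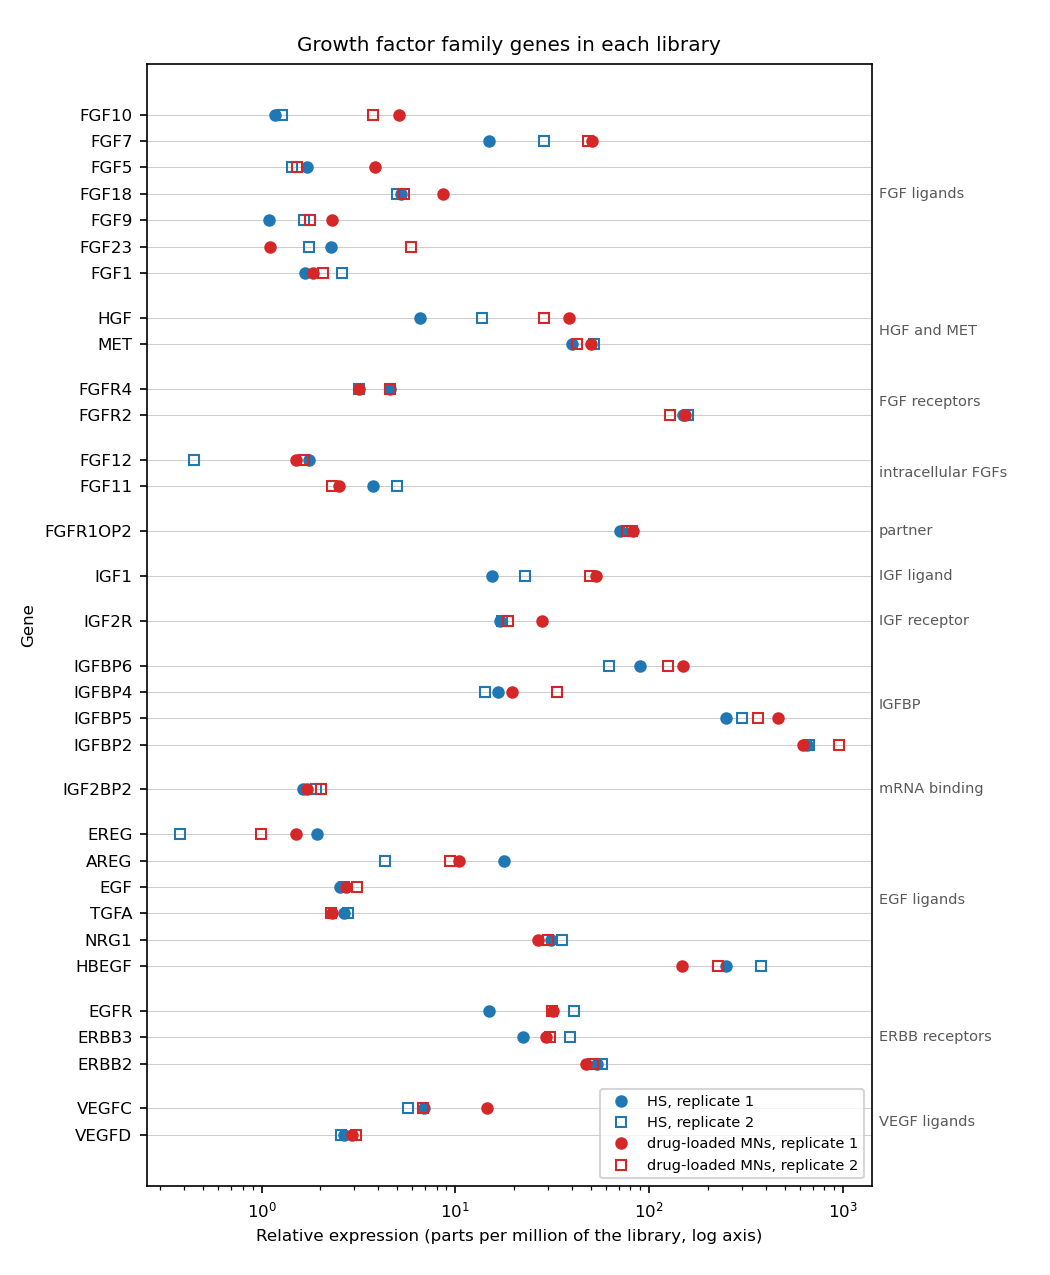
Relative expression of the 32 tested genes in each of the 4 libraries, in units on a log axis, with genes grouped by role. Blue marks are HS and red marks drug-loaded MNs, filled circles replicate 1 and open squares replicate 2. Red marks sit to the right of both blue marks for HGF, IGF1, FGF7, FGF10 and IGFBP6, and to the left for HBEGF and FGF11. Each gene is to be read across libraries only, since length correction was not stated.

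IGF1, the ligand of the IGF1 receptor and a growth signal for many skin cells, had the smallest p of all 32. IGF1 (ENSOCUG00000014689) stood at 15.5 and 23.0 units in the HS libraries and at 52.9 and 49.7 units in the drug-loaded MNs libraries. Both treated libraries lay above both untreated ones, and they differed little from each other. The group means were 19.2 ± 5.28 units in HS and 51.3 ± 2.27 units in drug-loaded MNs (SD, n = 2 each), which is 2.67-fold. The log2 fold change was 1.40 (standard error 0.27, adjusted p 0.264 by limma), and it was 1.13 without HS replicate 1, the lower of the HS libraries. The gene of the IGF1 receptor (IGF1R) was not among the 43, and neither was IGF2.

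HGF, which is made by stromal cells and acts on epithelium through the MET receptor, had the largest log2 fold change of the 32. HGF (ENSOCUG00000001618) was at 6.56 and 13.8 units in HS and at 38.5 and 28.6 units in drug-loaded MNs. The groups did not overlap, although the HS libraries differed from each other by more than the treated ones on a log scale. Means were 10.2 ± 5.10 and 33.5 ± 7.003 units (SD, n = 2 each), and the log2 fold change was 1.69 (standard error 0.37, adjusted p 0.310 by limma). Without HS replicate 1 it was 1.21 and without HS replicate 2 it was 2.18.

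FGF7 and FGF10 are paracrine FGFs that bind the epithelial form of FGFR2. FGF7 (ENSOCUG00000006713) was at 14.9 and 28.6 units in HS and at 50.6 and 48.5 units in drug-loaded MNs. Its log2 fold change was 1.22 (standard error 0.33, adjusted p 0.344 by limma), falling to 0.77 when HS replicate 1 was left out and reaching 1.67 without HS replicate 2. The size of the FGF7 difference thus rested on which HS library was kept, while its direction did not. FGF10 (ENSOCUG00000008499), a low gene here, was at 1.18 and 1.27 units in HS and at 5.14 and 3.77 units in drug-loaded MNs. The HS libraries were close together, and the log2 fold change was 1.28 (standard error 0.30, adjusted p 0.314 by limma), between 1.10 and 1.47 with any 1 library left out. On a linear scale FGF10 was 3.64-fold and FGF7 2.28-fold higher in drug-loaded MNs than in HS.

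The remaining FGF ligands differed less. FGF18, a ligand known from cartilage and hair follicle, was at 5.22 and 4.97 units in HS and at 8.61 and 5.43 units in drug-loaded MNs (log2 fold change 0.37, SE 0.31). FGF9 was at 1.09 and 1.66 units in HS and at 2.32 and 1.77 units in drug-loaded MNs (log2 fold change 0.36, SE 0.31). In both genes the groups did not overlap, but the nearest libraries of the groups almost touched. FGF5, a regulator of hair length, was high in drug-loaded MNs replicate 1 alone, at 3.85 units against 1.44 to 1.72 units in the other 3 libraries. FGF23, the phosphate-regulating hormone, was at 5.94 units in drug-loaded MNs replicate 2 and between 1.10 and 2.29 units elsewhere. FGF1 overlapped fully, with 1.68 and 2.62 units in HS and 1.84 and 2.07 units in drug-loaded MNs. FGF6, FGF16 and FGF20 were below the filter, and FGF20 was listed at 0 in all libraries. FGF2 was not among the 43.

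The receptors of these ligands among the 43 genes were FGFR2, FGFR4 and MET, and for each the libraries of the groups overlapped. FGFR1 and FGFR3 were not among the 43. FGFR2, the receptor of FGF7 and FGF10, was at 149.5 and 159 units in HS and at 153 and 128 units in drug-loaded MNs (log2 fold change -0.14, standard error 0.22, adjusted p 0.911 by limma). MET was at 39.9 and 51.7 units in HS and at 50.03 and 42.4 units in drug-loaded MNs (log2 fold change 0.02, standard error 0.25, adjusted p 0.986 by limma). FGFR4 had nearly the same pair of values in each group, 4.61 and 3.17 units in HS and 3.19 and 4.63 units in drug-loaded MNs.

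Ligand and receptor were then set against each other within each library, which takes out most of any scaling shared by the 2 genes. These pairs were chosen with the values known, and their differences are given without a test. The log2 ratio of HGF to MET was -2.43 and -1.83 in HS, while drug-loaded MNs had -0.37 and -0.55, which differed by 1.67 with a pooled SD of 0.31. That of FGF7 to FGFR2 was -3.25 and -2.43 in HS, while drug-loaded MNs had -1.57 and -1.39, which differed by 1.36 with a pooled SD of 0.42. The ratio of FGF10 to FGFR2 moved by 1.42 with a pooled SD of 0.06. In these 3 pairs the ligand stood higher against its receptor in both treated libraries than in either untreated library. Mean log2 fold changes of marker lists were 1.04 for fibroblasts, -0.18 for basal and -0.11 for suprabasal keratinocytes. The part of the cell mix in these ratios was not tested.

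**Figure D2:**
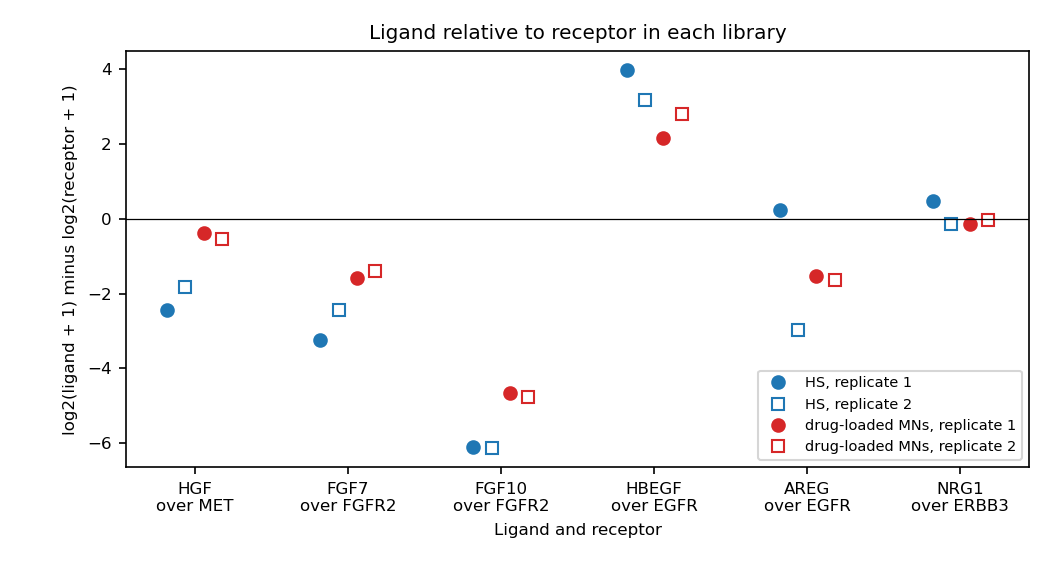
The log2 ratio of a ligand to its receptor (pseudocount 1) in each library, with blue for HS and red for drug-loaded MNs. The red marks lie above the blue ones for HGF over MET, FGF7 over FGFR2 and FGF10 over FGFR2 and below them for HBEGF over EGFR, while AREG over EGFR and NRG1 over ERBB3 overlap. Heights of different pairs are not to be compared, as gene length was not accounted for.

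The intracellular FGF homologous factors carry FGF names but are not secreted and are known as partners of sodium channels. FGF11 (ENSOCUG00000004215) was at 3.77 and 5.01 units in HS and at 2.51 and 2.31 units in drug-loaded MNs. It was lower in both treated libraries, with a log2 fold change of -0.65 (standard error 0.30, adjusted p 0.619 by limma). FGF12 was at 0.447 units in HS replicate 2 and between 1.51 and 1.77 units in the other libraries, so that library alone set its log2 fold change of 0.37. FGF14 did not pass the filter. FGFR1OP2, which is named after FGFR1 but is no receptor, was nearly level, at 70.8 and 81.4 units in HS and at 82.5 and 77.2 units in drug-loaded MNs.

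IGF binding proteins are secreted carriers that limit or localise IGFs, and IGFBP6 is known to prefer IGF2. All 4 that were tested had log2 fold changes above 0, as had 64.6% of all tested genes. In 3 of the 4 the groups did not overlap, where 26.6% of all tested genes were higher without overlap. IGFBP6 (ENSOCUG00000001412) was at 89.7 and 61.9 units in HS and at 149 and 125 units in drug-loaded MNs. Its means were 75.8 ± 19.7 and 137 ± 16.9 units (SD, n = 2 each), and the log2 fold change came to 0.86 (standard error 0.26, adjusted p 0.397 by limma). Unlike IGF1, HGF and FGF7, it was higher in HS replicate 1 than in HS replicate 2, and without HS replicate 1 the log2 fold change was 1.13.

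IGFBP5 (ENSOCUG00000025513), which binds to matrix as well as to IGFs, was at 249.6 and 299.5 units in HS and at 461 and 366 units in drug-loaded MNs. The log2 fold change was 0.59 (standard error 0.23, adjusted p 0.529 by limma), between 0.42 and 0.75 with 1 library left out. IGFBP4 was at 16.5 and 14.2 units in HS and at 19.5 and 33.3 units in drug-loaded MNs (log2 fold change 0.70, standard error 0.31, adjusted p 0.603 by limma), and drug-loaded MNs replicate 2 carried most of that. Without that library it was 0.33. IGFBP2, which lies next to IGFBP5 in the genome, was at 651 and 664 units in HS and at 618 and 948 units in drug-loaded MNs. The groups overlapped, and only drug-loaded MNs replicate 2 stood apart. IGFBPL1 was listed at 0 in all libraries, and IGFBP3 and IGFBP7 were not among the 43.

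IGF1 was also higher against part of its binding proteins. The log2 ratio of IGF1 to IGFBP5 was -3.93 and -3.65 in HS, while drug-loaded MNs had -3.10 and -2.85, which differed by 0.81 with a pooled SD of 0.18. Against IGFBP2 the difference was 1.18 with a pooled SD of 0.44, also without overlap. Against IGFBP4 (0.70) and IGFBP6 (0.53) the groups overlapped. IGF2R, which takes IGF2 into lysosomes, was at 17.0 and 17.4 units in HS and at 28.1 and 18.6 units in drug-loaded MNs (log2 fold change 0.39, SE 0.28). The IGF2 mRNA binding proteins, which bind RNA and are not part of IGF signalling at the cell surface, were low. IGF2BP2 had 1.63 and 1.91 units in HS and 1.71 and 2.03 units in drug-loaded MNs, while IGF2BP1 and IGF2BP3 fell below the filter.

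The EGF family ligands split, with AREG, EREG and EGF slightly above 0 and HBEGF, NRG1 and TGFA below, and under quantile normalization all 6 were below. HBEGF, a membrane-bound EGFR ligand released by keratinocytes and macrophages after injury, was lower in drug-loaded MNs. HBEGF (ENSOCUG00000015909) was at 249 and 376 units in HS and at 147 and 227 units in drug-loaded MNs. The highest treated library was close to the lowest untreated one. Means were 312 ± 89.5 and 187 ± 56.4 units (SD, n = 2 each), and the log2 fold change came to -0.74 (standard error 0.30, adjusted p 0.545 by limma). Leaving out drug-loaded MNs replicate 2 gave -1.05, and leaving out replicate 1 of that group gave -0.43.

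HBEGF is an early response gene, so the 4 dissociation response genes of the table (EGR1, JUN, ATF3 and FOS) were set beside it. Their summed level was 10884 and 17369 units in HS and 11201 and 11847 units in drug-loaded MNs, and their median log2 fold change was -0.15, with all 4 below 0 and overlapping. HS replicate 2 had the highest value of both HBEGF and this sum, whereas HS replicate 1 was the lowest library in the sum and not in HBEGF. Relative to the mean log2 level of these 4 genes, HBEGF was still 0.53 lower in drug-loaded MNs (pooled SD 0.27), without overlap. The part of cell dissociation in the HBEGF result was not tested.

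NRG1, the ERBB3 and ERBB4 ligand, was at 31.3 and 35.5 units in HS and at 26.6 and 30.1 units in drug-loaded MNs (log2 fold change -0.23, SE 0.24). TGFA was at 2.66 and 2.81 units in HS and at 2.31 and 2.28 units in drug-loaded MNs (log2 fold change -0.18, SE 0.29). EGF was at 2.53 and 2.65 units in HS and at 2.73 and 3.13 units in drug-loaded MNs. The groups of these 3 genes did not overlap, but each difference was smaller than its standard error.

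AREG and EREG, which are adjacent genes and both EGFR ligands, had the same order of libraries. AREG was at 17.7 and 4.35 units in HS and at 10.5 and 9.43 units in drug-loaded MNs, and EREG was at 1.94 and 0.380 units in HS and at 1.499 and 0.991 units in drug-loaded MNs. HS replicate 1 was highest and HS replicate 2 lowest in both, so the spread within HS enclosed the treated libraries. BTC, in the same gene cluster, stayed below the filter.

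Of the ERBB receptors, ERBB2 was at 54.0 and 57.0 units in HS and at 47.4 and 51.3 units in drug-loaded MNs (log2 fold change -0.17, SE 0.22), lower without overlap. EGFR was at 15.0 and 41.1 units in HS, with both treated libraries between them at 31.9 and 31.6 units. ERBB3 showed the same pattern, at 22.4 and 39.1 units in HS and at 29.4 and 30.6 units in drug-loaded MNs. HS replicate 1 was thus the lowest library for both receptors, and leaving it out turned the log2 fold change of EGFR from 0.34 to -0.36. ERBB4 stayed below the filter. The log2 ratio of HBEGF to EGFR was 3.97 and 3.16 in HS, while drug-loaded MNs had 2.17 and 2.80, which differed by -1.08 with a pooled SD of 0.51.

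Among the VEGF ligands, VEGFC and VEGFD are the ones that drive lymphatic vessel growth. VEGFA and VEGFB were not among the 43. VEGFC was at 6.90 and 5.73 units in HS and at 14.6 and 6.80 units in drug-loaded MNs (log2 fold change 0.60, standard error 0.38, adjusted p 0.749 by limma). Drug-loaded MNs replicate 1 alone was high, and without it the log2 fold change was 0.10. VEGFD was at 2.67 and 2.57 units in HS and at 2.92 and 3.08 units in drug-loaded MNs (log2 fold change 0.14, SE 0.29). The 3 lymphatic endothelial markers of the table (PROX1, LYVE1 and MMRN1) were all higher in drug-loaded MNs without overlap, with sums of 8.73 and 11.8 units in HS and 43.0 and 31.6 units in drug-loaded MNs. The 4 endothelial markers split, each without overlap. CDH5, at 2.76 and 4.30 units in HS and at 6.42 and 8.58 units in drug-loaded MNs, and PECAM1 were higher in drug-loaded MNs, with log2 fold changes of 0.92 and 0.54. VWF and TIE1 were lower, with -0.50 and -0.20. Their sum, mostly VWF, was 177 and 168 units in HS and 124 and 170 units in drug-loaded MNs. The part of vessel cells in the VEGFC values was not tested.

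**Figure D3:**
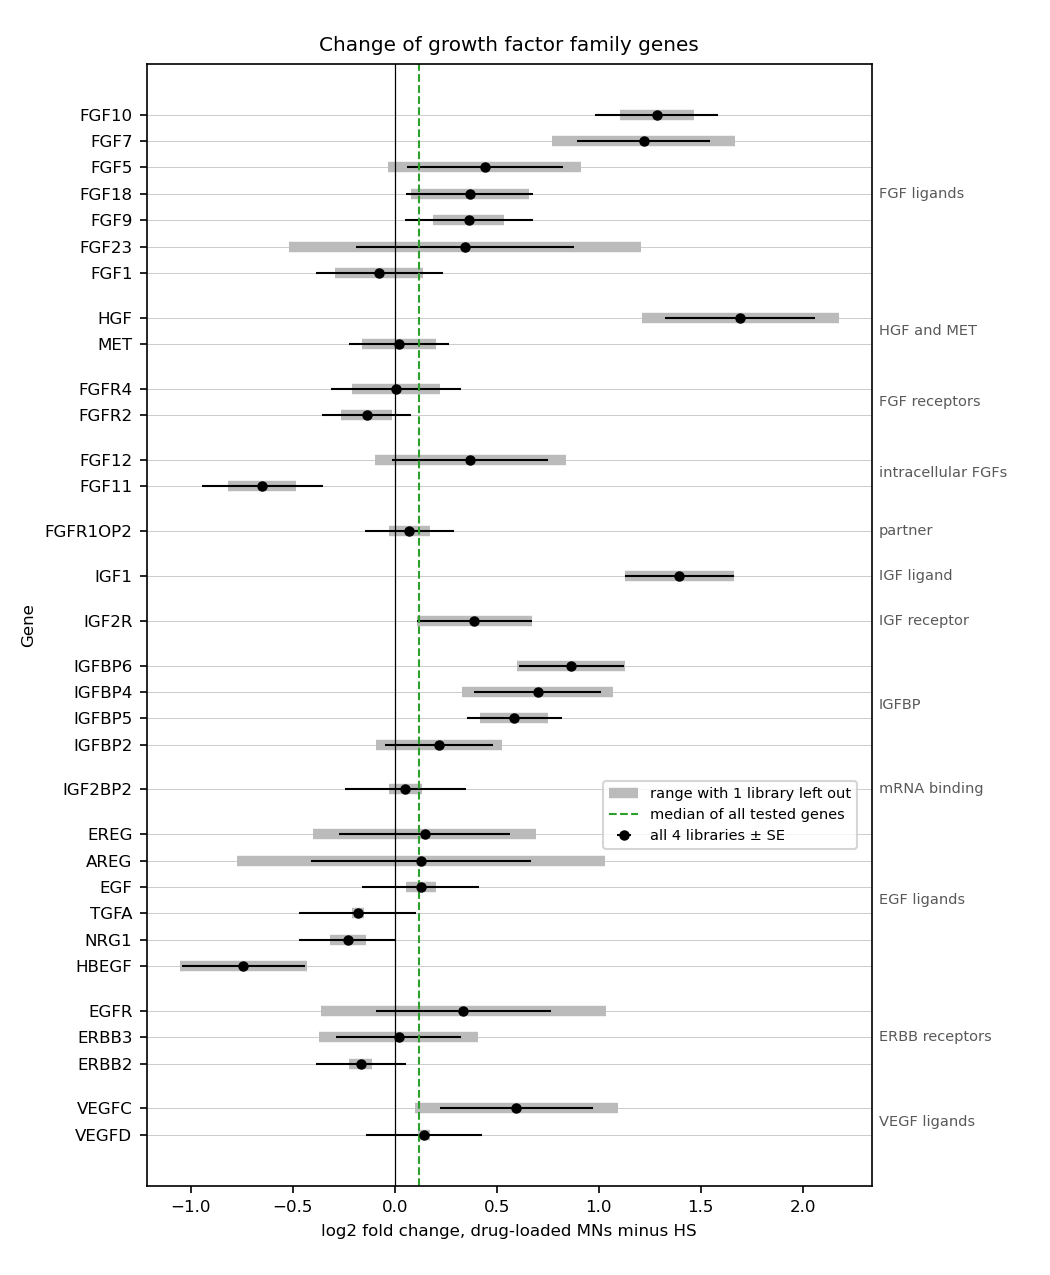
The log2 fold change (drug-loaded MNs minus HS) of each of the 32 tested genes, with its SE as a black line and the range over fits with 1 library left out as a grey bar. The dashed line is the median of all tested genes (0.12). The grey bars of HGF, IGF1, FGF10 and FGF7 stay above 0.77, those of HBEGF and FGF11 stay below -0.43, and those of AREG, EGFR and FGF23 run across 0.

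Markers of stromal cells were higher beside the ligands. Of the 5 fibroblast markers all were higher in drug-loaded MNs without overlap, with a mean log2 fold change of 1.04. The same held for the 6 macrophage markers of the table (CSF1R, C1QA, C1QB, C1QC, CD163 and MRC1), with a mean of 1.31 and sums of 77.7 and 95.3 units in HS and 194 and 195 units in drug-loaded MNs. None of the 5 or the 6 was at 0 in all libraries. The medians of the keratinocyte lists were -0.18 for basal and -0.06 for suprabasal markers. With a library left out, those medians ran from -0.57 to 0.29 for basal and from -0.52 to 0.046 for suprabasal markers. The median of 5 mural genes was 0.50 and stayed above 0 with a library left out, if barely (0.0088 to 1.05). The direction of several other lists depended on which library was kept. The median was 0.42 for 4 mast cell genes (-0.33 to 1.05) and 0.73 for 3 Schwann cell genes (-0.040 to 1.29). It was -0.03 for 4 melanocyte genes (-0.74 to 0.62) and 0.59 for 4 cycling genes (-0.20 to 1.56). The T cell gene CD2 was higher without overlap, at 0.559 and 1.24 units in HS and at 3.73 and 2.31 units in drug-loaded MNs. The cartilage gene COL9A1 was at 273 and 6.53 units in HS and at 127 and 83.3 units in drug-loaded MNs, so the HS libraries enclosed the treated ones and its level followed single libraries. S100B, the Schwann cell gene that set the median of its list, had the same order of libraries. It was at 410 and 17.0 units in HS and at 204 and 98.5 units in drug-loaded MNs. The part of these cell types in the results on ligands was not tested.

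Each gene was also expressed relative to the mean log2 level of a marker list in the same library, a measure chosen after the values were seen. Against the fibroblast list, the difference between drug-loaded MNs and HS became 0.36 for IGF1 (pooled SD 0.19), 0.65 for HGF (pooled SD 0.46), 0.24 for FGF10 (pooled SD 0.26) and 0.18 for FGF7 (pooled SD 0.35). Groups stayed free of overlap for IGF1 and HGF, and overlapped for FGF10 and FGF7. IGFBP6 came to -0.18 with overlap, and IGFBP5 to -0.46 without it, so IGFBP5 was lower in drug-loaded MNs on this relative scale and higher on the plain one.

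Against the macrophage list the differences were 0.09 for IGF1, 0.38 for HGF, -0.03 for FGF10 and -0.09 for FGF7, all with overlap. Against the suprabasal keratinocyte list they stayed near their plain values, at 1.505 for IGF1, 1.80 for HGF, 1.39 for FGF10 and 1.33 for FGF7. HBEGF was 1.78 lower against the fibroblast list, 0.63 lower against the suprabasal list and 0.56 lower against the basal list, with overlap in the last. FGF11 was lower by 1.69 against the fibroblast list and by 0.54 against the suprabasal list.

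**Figure D4:**
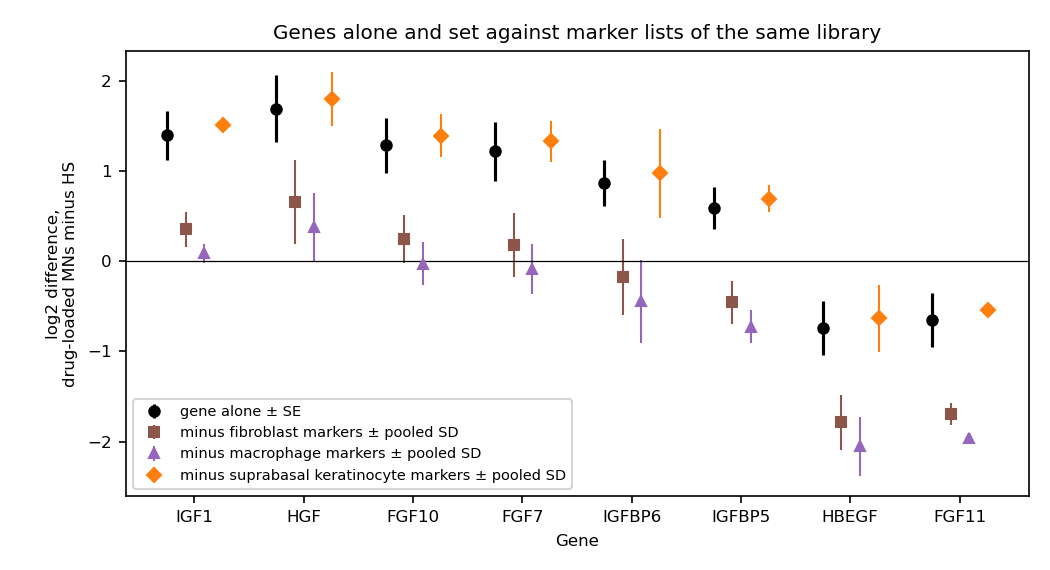
The log2 difference between drug-loaded MNs and HS for 8 genes, alone (black, with SE) and after subtracting the mean log2 level of fibroblast (brown), macrophage (purple) or suprabasal keratinocyte (orange) markers in the same library (with the pooled SD of the 2 groups). IGF1, HGF, FGF10 and FGF7 drop to between -0.09 and 0.65 against the fibroblast and macrophage lists and stay between 1.33 and 1.80 against the keratinocyte list.

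Other genes of the same pathways were taken from lists of ligand processing, coreceptors, relays and feedback inhibitors. Of 80 listed genes 50 were in the table and 48 were tested, and 0 passed in limma. At an unadjusted p under 0.05, 7 of the 48 were higher and 1 was lower, where 7.26% and 1.39% of all tested genes were. The ligand processing list, which holds proteases and inhibitors that free or trap these ligands, had 3 of 7 higher and 1 lower at that level. HTRA1, a secreted protease known to cut IGF binding proteins and matrix, was at 51.2 and 109.8 units in HS and at 204 and 178 units in drug-loaded MNs (log2 fold change 1.33, standard error 0.35, adjusted p 0.344 by limma). STC1, a secreted glycoprotein that can restrain pappalysins, was at 9.75 and 7.91 units in HS and at 15.3 and 16.4 units in drug-loaded MNs (log2 fold change 0.78, SE 0.27). ST14, picked out after its values were seen, is the epithelial protease matriptase, which can activate pro-HGF. ST14 was at 18.6 and 21.4 units in HS and at 11.6 and 13.2 units in drug-loaded MNs (log2 fold change -0.65, standard error 0.26, adjusted p 0.527 by limma). HTRA1 and ST14 thus lay on opposite sides, each without overlap.

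All 6 tested genes of the PI3K-AKT relay had log2 fold changes above 0 (median 0.41), under the 3 other scalings as well, and so had 64.6% of all tested genes in the scaling used here. PIK3R1, the regulatory subunit of PI3K, was at 113 and 161 units in HS and at 229.6 and 195 units in drug-loaded MNs (log2 fold change 0.64, SE 0.25). The adaptors and RAS-ERK relay split evenly, with 7 above and 7 below 0 (6 and 8 under median ratio scaling) and a median of 0.06. The largest there was PTPN11, the phosphatase SHP2, with a log2 fold change of 0.62 (SE 0.35) and overlapping groups. GAB2, an adaptor, had 0.46 (SE 0.32).

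Feedback inhibitors and ERK targets are often read as a sign of receptor activity. In that list 9 genes were above and 6 below 0, where 64.6% of all tested genes were above. Its median was 0.21, and under median ratio scaling 8 lay above and 7 below. SOCS2, an inhibitor of cytokine and growth hormone signalling, was at 18.3 and 12.6 units in HS and at 26.1 and 27.1 units in drug-loaded MNs (log2 fold change 0.77, standard error 0.27, adjusted p 0.467 by limma). ERRFI1, an inhibitor of EGFR, was at 187 and 258 units in HS and at 143 and 166 units in drug-loaded MNs (log2 fold change -0.51, standard error 0.24, adjusted p 0.648 by limma). ERRFI1 lay on the same side as HBEGF, without overlap. Of the 15 genes of the list, 6 were higher and 2 lower without overlap, where 26.6% and 11.2% of all tested genes were. Beside SOCS2 the higher ones were CBLB (log2 fold change 0.53), SPRED1 (0.49), GRB14 (0.42), SPRY4 (0.39) and SPRED3 (0.31). Beside ERRFI1 the lower one was SPRED2 (-0.17). The groups overlapped for LRIG1 (0.37), SPRY1 (0.21), DUSP6 (0.13), SPRY2 (-0.27), ETV5 (-0.31), ETV4 (-0.33) and DUSP5 (-0.37).

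The tested genes of the VEGF receptor, FGF coreceptor and IRS lists had log2 fold changes from 0.24 to 0.63. NRP2, FLRT2 and IRS1 were higher without overlap, as were 26.6% of all tested genes. NRP2, a coreceptor of VEGFC, was at 10.4 and 8.46 units in HS and at 16.7 and 12.6 units in drug-loaded MNs (log2 fold change 0.58, SE 0.28), and KDR had a log2 fold change of 0.37 (SE 0.30) with overlap. FLRT2, a membrane protein that can bind FGF receptors, was at 23.2 and 24.4 units in HS and at 38.9 and 35.7 units in drug-loaded MNs (log2 fold change 0.63, SE 0.23), while FLRT3 had 0.24 (SE 0.34) with overlap. IRS1, the adaptor of the insulin and IGF1 receptors, had a log2 fold change of 0.48 (SE 0.31).

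**Figure D5:**
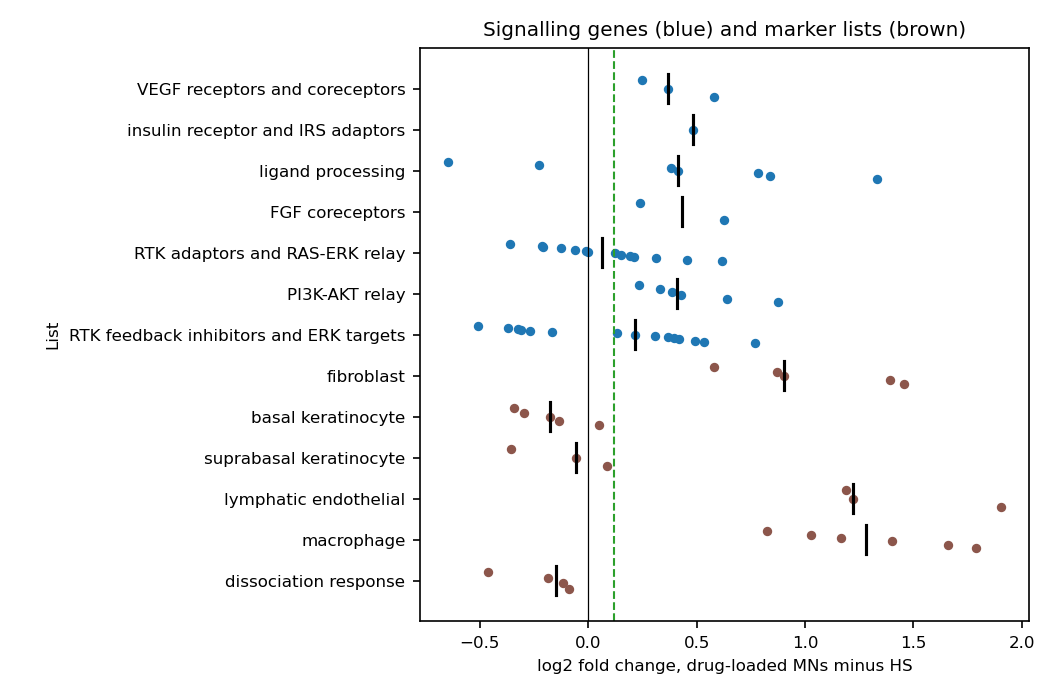
The log2 fold change (drug-loaded MNs minus HS) of every tested gene in each signalling list (blue) and in 6 marker lists (brown), with the median of each list as a black bar and the median of all tested genes (0.12) as a dashed line. Signalling lists have medians between 0.06 and 0.48, below the fibroblast (0.90), lymphatic endothelial (1.22) and macrophage (1.28) lists.

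The 11 genes below the filter were AREG's neighbour BTC, ERBB4, FGF6, FGF14, FGF16, FGF20, FGFBP1, FGFBP2, IGFBPL1, IGF2BP1 and IGF2BP3. Of these, FGF20, FGFBP2 and IGFBPL1 were listed at 0 in all libraries, and no value of the other 8 went above 1.38 units. FGFBP1, a carrier that releases FGFs from matrix, had 1.09 and 0.0620 units in HS and 0.864 and 0.0142 units in drug-loaded MNs, so both first replicates were higher than both second ones.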

How the data were processed

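Single cells of rabbit ear scars were profiled with 10x Genomics 3′ libraries (2 HS, 2 drug-loaded MNs). The submitters' processing notes name Cell Ranger 2.1.1 and the mouse build mm10, while the deposited gene identifiers are rabbit. The authors filtered cells and removed batch effects in their single-cell analysis. Whether the deposited values passed through those steps, and how doublets were treated, was not stated. The deposited values, a signal per gene and library, are named FPKM, but each column sums to 10000, so they were handled as relative signal of unknown depth with unstated length correction and rescaled to a total of 1000000. Genes below a mean of 1 unit were dropped (9348 of 13913 stayed), log2(value + 1) was taken, and limma 3.58.1 under R 4.3.3 (lmFit and eBayes with a trend, two-sided, no covariate) compared the groups, with Benjamini-Hochberg adjustment over all tested genes and a threshold of 0.05. Fold changes on this scale understate those of low genes. The script was tested on simulated data.

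The 43 genes, the pathway lists and the marker lists (macrophage, fibroblast, mural, endothelial and lymphatic endothelial cells, suprabasal and basal keratinocytes, mast, T cell, Schwann, cartilage, melanocyte, dissociation response and cycling genes) were chosen with earlier results of these data known. Full statistics were given for up to 6 genes higher and 6 lower with the smallest p among those without overlap and with an absolute log2 fold change over 0.5, library values for the highest gene of each role, and up to 2 genes per pathway list. Other genes were added after their values were seen. Alternatives were other scalings, pseudocounts of 0.1 and 5, other filters, other variance priors, a replicate block and leaving out each library. A RefSeq gene list of assembly mOryCun1.1, in which 41 of the 43 were found, served only to see which genes are neighbours.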

Additional observations from a re-analysis of the deposited data

How the results depend on the processing

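With 2 libraries per group and no depth in the files, small differences could not be told from noise. Of the 32 tested genes, 17 kept their direction under every alternative run and 15 turned in at least 1. The 4 genes of the whole table past the threshold became 0 under median ratio scaling, quantile normalization, a total without abundant genes, a pseudocount of 5 and no filter, 1 with eBayes without trend, 241 under the replicate block and 0 to 38 with a library left out, reaching 35 without drug-loaded MNs replicate 1 and 38 without replicate 2. Whether same-numbered libraries share more than a number was not stated. Across tested genes, the difference between replicates in HS correlated at 0.22 with that in drug-loaded MNs. The replicate block left 1 residual degree of freedom. Under that block IGF1, HGF, FGF10 and FGF7, 4 of the 32, passed in limma (adjusted p 0.00237, 0.000708, 0.0356 and 0.0108), against 0 without it. Genes higher without overlap (12) were 7 with median ratio scaling and 6 after quantile normalization (18.4% and 16.7% of all genes), and 15 to 18 with a library left out (34.7% to 54.2% of all genes). Without drug-loaded MNs replicate 2 the 15 were 46.9% of the 32, against 48.9% of all genes. Genes lower without overlap (5) were 7 and 8 under these scalings (20.6% and 20.8% of all genes), 3 of 19 at a minimum mean of 5 (11.95% of all genes), and 6 to 10 with a library left out (18.2% to 30.0% of all genes). The median of the 32 (0.18) was 0.065 under median ratio scaling, 0.054 under quantile normalization, 0.29 and 0.094 at pseudocounts of 0.1 and 5, 0.34 at a minimum mean of 5, and 0.12 to 0.21 with a library left out, while the median of all genes went from 0.12 to -0.01 and -0.02 under the scalings. The ligand processing median (0.42) was 0.66 at a pseudocount of 0.1 and 0.29 to 0.74 with a library left out, and the feedback median (0.21) was -0.018 at a minimum mean of 5 and 0.027 to 0.38. With a library left out the other medians ran from 0.026 to 0.49 for VEGF receptors, 0.21 to 0.75 for IRS1, 0.16 to 0.71 for FGF coreceptors, -0.075 to 0.18 for the RAS-ERK relay and 0.12 to 0.70 for the PI3K-AKT relay. Median ratio scaling turned AREG (-0.0061), ERBB3 (-0.12), FGFR4 (-0.11), MET (-0.12), IGF2BP2 (-0.039) and FGFR1OP2 (-0.071). Quantile normalization turned AREG (-0.10), EGF (-0.13), EREG (-0.12), ERBB3 (-0.10), FGFR4 (-0.25), MET (-0.068), IGF2BP2 (-0.18) and VEGFD (-0.12). Leaving out a library turned AREG (-0.78 to 1.03), EGFR (-0.36 to 1.03), ERBB3 (-0.37 to 0.41), EREG (-0.40 to 0.69), FGF1 (-0.29 to 0.14), FGF12 (-0.10 to 0.84), FGF23 (-0.52 to 1.21), FGF5 (-0.033 to 0.92), FGFR1OP2 (-0.028 to 0.17), FGFR4 (-0.21 to 0.22), IGF2BP2 (-0.029 to 0.13), IGFBP2 (-0.090 to 0.53) and MET (-0.16 to 0.20). A fit with 1 library in a group assumes that it varies like the other group. The causes were not tested, and DESeq2 was not run, since the values are not counts.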
